A study of Mus musculus and Acomys cahirinus with 84 samples.

Results

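The 10 genes described here form the transcription module that ties the retinoblastoma proteins to cell cycle gene expression. They are the activating factors *E2f1*, *E2f2* and *E2f3*, the repressive factors *E2f7* and *E2f8*, the pocket protein genes *Rb1*, *Rbl1* and *Rbl2*, and the late-acting activators *Foxm1* and *Mybl2*. They were chosen by name as a known pathway, with earlier results of these data known. All 10 were found once among the 56980 gene identifiers of the mouse table and once among the 19818 gene names of the *A. cahirinus* table. The measurements are read counts per gene from stranded mRNA libraries of primary skin fibroblasts. Cells came from mice labelled C56BL6, from wild mice and from the African spiny mouse *A. cahirinus*, a murid outside the genus *Mus*. In each of these 3 populations there were 7 groups of 4 libraries. At 24 h the groups were untreated cells (0 Gy) and cells given 10 or 20 Gy of gamma radiation. At 12 d they were again 0, 10 and 20 Gy, plus cells labelled untreated and passaged. Within a population, libraries of one replicate number share a code in their labels. All 24 h libraries are labelled as one batch and all 12 d libraries as another, which confounds batch with time. Tests were therefore kept within a time.

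In a resting cell, unphosphorylated retinoblastoma protein (RB, the product of *Rb1*) and its relatives p107 (*Rbl1*) and p130 (*Rbl2*) hold E2F factors in check. Cyclin-dependent kinases, driven by D and E cyclins and restrained by inhibitors such as p21 (*Cdkn1a*), phosphorylate the pocket proteins and free the activating E2Fs, which switch on genes of DNA synthesis and S phase. p130 or p107 together with E2F4, DP1 and the MuvB core form the DREAM complex, the main repressor of cell cycle genes in quiescence. As a cycle proceeds, MuvB joins B-Myb (*Mybl2*) and then FOXM1 to activate genes of G2 and mitosis, while E2F7 and E2F8 repress E2F targets late in S phase. After DNA damage, p53 raises p21, which returns cells to the repressed state, so mRNAs of this module are widely read as an index of proliferation.

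Several of these genes are themselves E2F targets, and the E2F words found in the mouse promoters are shown here. Windows from 250 bases before to 50 bases after the start of each gene's Ensembl canonical transcript (GENCODE vM39) were searched. The search covered both strands of GRCm39, the build of the mouse count table, and no windows at other annotated starts. The E2F words searched were TTTCCCGC, TTTCGCGC, TTTGCCGC and TTTGGCGC, all of which open with the same 3 letters. A match occurred in 7 of the 10 genes, against 614 of 21770 windows of protein-coding genes (2.82%). The stretches below hold the matched word in capitals on the strand of the gene, 5′ to 3′. The matches of *E2f1*, *E2f2* and *Rbl1* lie downstream of that start, in transcribed sequence, and those of *E2f3*, *E2f7*, *E2f8* and *Rb1* lie upstream of it. The *E2f8* match still lies within the annotated span of its gene (chr7:48516176-48531452), so it is not upstream of every annotated start.
E2f1, first match (chr2:154411790-154411819, minus strand): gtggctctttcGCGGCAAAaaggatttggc
E2f1, second match (chr2:154411777-154411806, minus strand): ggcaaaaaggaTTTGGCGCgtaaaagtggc
E2f2 (chr4:135899613-135899634, plus strand): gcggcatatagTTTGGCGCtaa
E2f3 (chr13:30170039-30170068, minus strand): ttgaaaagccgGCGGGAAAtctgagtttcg
E2f7 (chr10:110581091-110581120, plus strand): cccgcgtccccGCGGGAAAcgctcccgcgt
E2f8 (chr7:48530941-48530970, minus strand): tcccgctttccGCGCCAAAtttttaaatcg
Rb1 (chr14:73563703-73563732, minus strand): tcaaaagctacTTTCCCGCtaagatctgtc
Rbl1 (chr2:157046454-157046483, minus strand): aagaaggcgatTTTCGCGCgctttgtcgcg
No such word occurred in these windows for *Rbl2*, *Foxm1* or *Mybl2*. The CHR words TTTGAA and TTCGAA, which the MuvB core reads, occurred in the windows of 3 genes (*E2f3*, *Rb1* and *Rbl2*), against 18.8% of all windows. A CCAAT box was present in 6 of 10, against 39.9% of all windows. A word match is a description of letters, not a measured binding site.

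Total counts per library ranged from 25.55 to 52.86 M in *A. cahirinus*, from 17.42 to 35.98 M in wild mice and from 26.65 to 39.82 M in C56BL6 mice. Levels are given as library-size normalised counts (CPM) after TMM scaling, and a floor of 3 counts corresponds to 0.057 to 0.172 CPM over all libraries. Each gene was tested with edgeR's quasi-likelihood test, with p-values adjusted over all genes tested (Benjamini-Hochberg) and a threshold of 0.05. Because libraries of one replicate number deviated together, each comparison was also fitted with the number as a block, and the blocked value is printed where it changes a call. All 7 fibroblast markers averaged at least 1 CPM in every population, with a summed level of 7411 to 81400 CPM. Some libraries stood apart. In C56BL6 mice, every number 1 library held mRNA of the keratinocyte markers *Krt5* (67.2 to 409 CPM) and *Krt14* (145 to 415 CPM). The 5 keratinocyte markers summed to between 215 and 826 CPM there before TMM scaling, against 1.07 to 3.74 CPM in numbers 2 to 4. *Krt5* and *Krt14* made up nearly all of the number 1 sum, and the remaining markers added little. All 3 muscle markers averaged at least 1 CPM in *A. cahirinus*, against 1 of 3 in C56BL6 mice and 1 of 3 in wild mice. Of these, *Des* was at 232 to 1621 CPM in *A. cahirinus* before TMM scaling, lowest in number 2. Whether muscle-lineage mRNA contributes to differences between the populations was not tested.

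Wild mouse libraries carrying number 1 at 12 d did not match their number at 24 h. With a gene counted as on at 20 or more reads in all libraries of one number and off at 1 or fewer in all of another, 38 genes separated wild number 1 at 24 h from wild number 1 at 12 d. None separated the latter from wild number 4, at 24 h or at 12 d, whereas the other wild numbers each had 0 such genes against their own number across times. *Des* likewise read 696 to 1204 CPM in wild number 1 at 24 h and 2.9 to 6.8 CPM in the 12 d libraries labelled wild number 1. The main wild results at 12 d are therefore given with and without those libraries. The wild library of number 1 at 24 h and 10 Gy was the shallowest of all at 17.42 M counts and had the fewest genes detected, and 10 Gy results are also given without it. By the same on and off rule, 0 genes separated C56BL6 numbers 3 and 4 at either time. At most 4 separated any pair of *A. cahirinus* numbers within a time. Labels in those populations could not be fully checked this way.

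Per kb of gene length, untreated cells at 24 h ranked the module much alike in C56BL6 mice and *A. cahirinus* at the top. *Foxm1* stood at 15.3 ± 1.96 CPM per kb in C56BL6 mice and 18.4 ± 2.66 in *A. cahirinus* (mean ± SD, n = 4, as for all means below), and *E2f1* at 14.1 ± 0.466 and 16.8 ± 3.82. These neighbours in the order did not differ beyond their spread. In wild mice the order of the pair was the other way, with *E2f1* at 14.8 ± 1.2 and *Foxm1* at 11.5 ± 2.39 CPM per kb. *Mybl2* in *A. cahirinus* followed at 16.6 ± 4.63 CPM per kb but at 3.88 ± 0.564 in C56BL6 and 3.03 ± 0.137 in wild mice, below *E2f3*. The 3 pocket protein genes did not separate beyond their spread in mice, at 4.48 ± 0.585 CPM per kb for *Rbl1*, 3.58 ± 0.413 for *Rb1* and 3.43 ± 0.558 for *Rbl2* in C56BL6 mice. *E2f2* was last in every population, at 0.225 ± 0.0436, 0.228 ± 0.0901 and 0.671 ± 0.304 CPM per kb.

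At 12 d the untreated cultures had another order. In *A. cahirinus* *Rb1* was first at 22.8 ± 3.78 CPM per kb, followed by *Rbl2* at 10.6 ± 0.895 and *E2f1* at 9.39 ± 1.92, which overlapped each other. In C56BL6 mice *E2f1* led at 15.2 ± 1.86, then *Rbl2* at 8.02 ± 1.82, *E2f3* at 5.83 ± 0.412 and *Rb1* at 3.67 ± 0.462, and wild mice had the same order of these 4. *Mybl2*, *E2f8*, *E2f7* and *E2f2* closed the order in both mice, each below 0.5 CPM per kb and not separable from one another. Annotated lengths differ between the 2 tables, so levels are compared between genes within a population and not between populations.

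**Figure D1:**
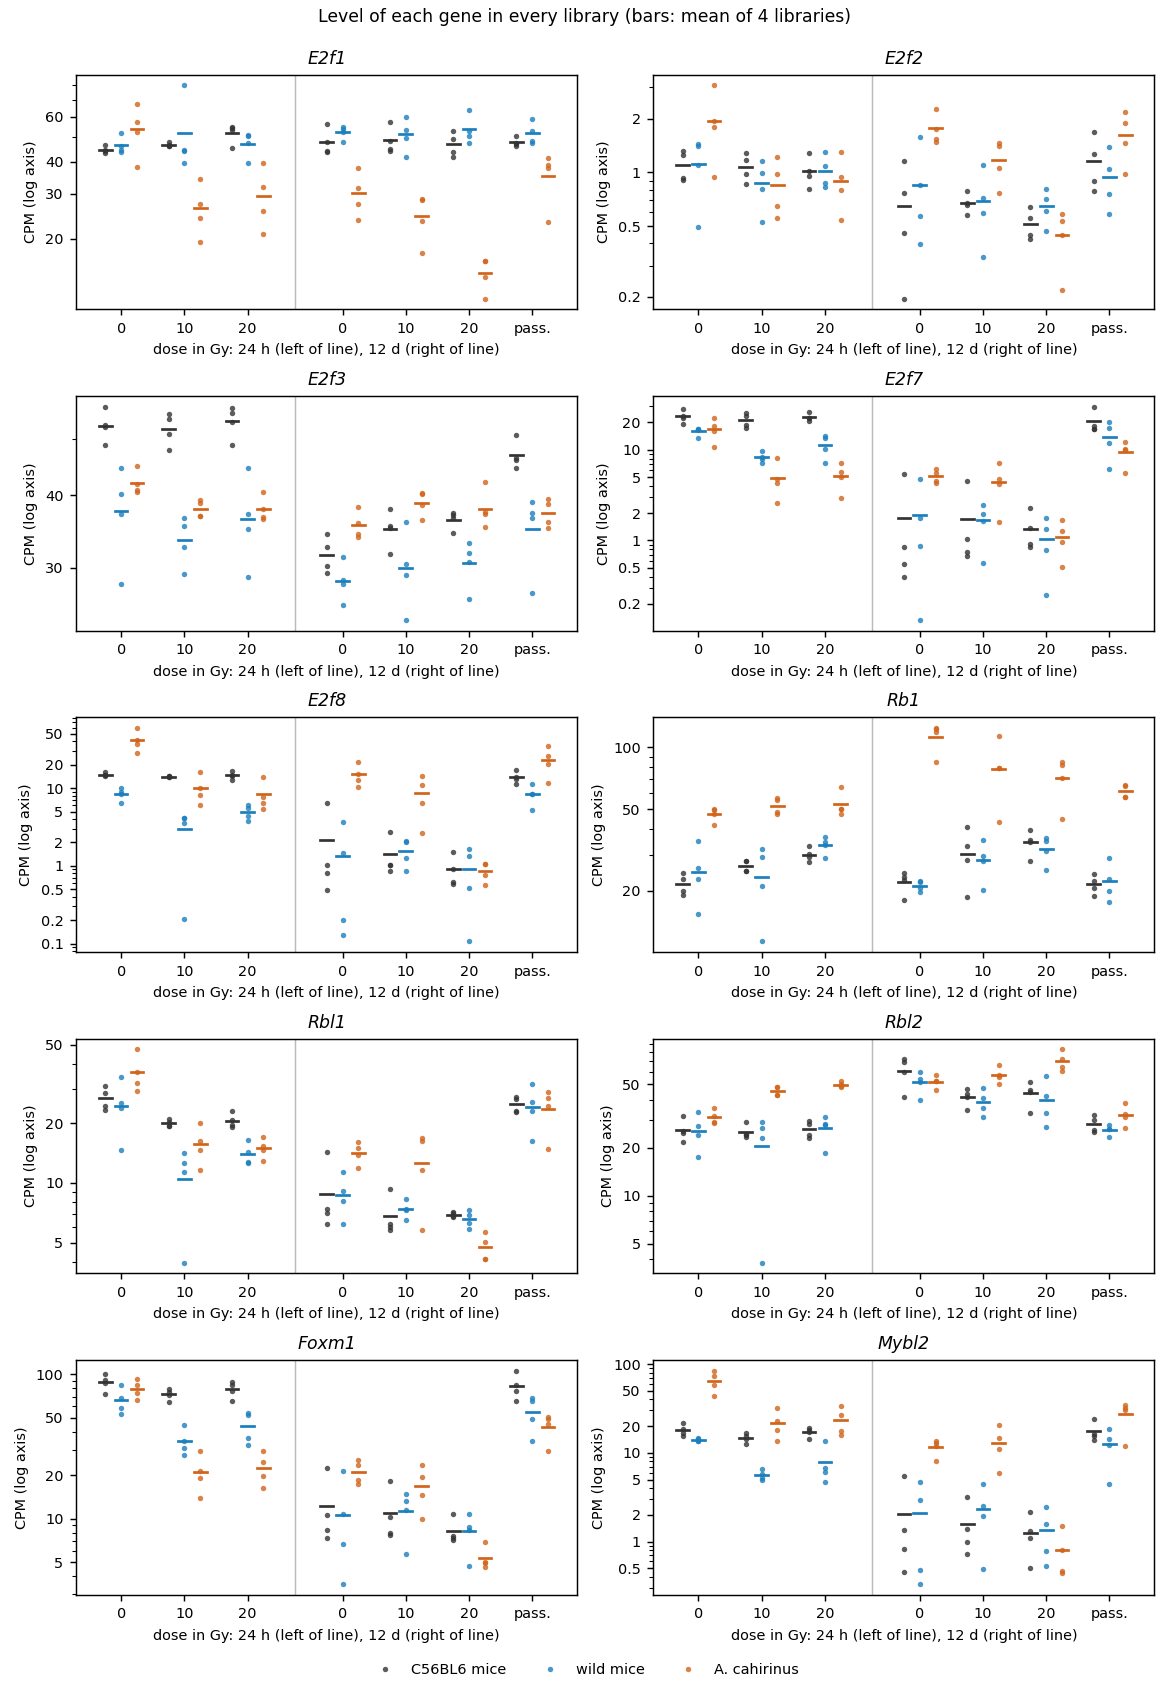
CPM of each of the 10 genes in all 84 libraries, on log axes, by dose and time, with dots for libraries, bars for the mean of 4 and colours for populations. *E2f7*, *E2f8*, *Rbl1*, *Foxm1* and *Mybl2* are lower in irradiated than in untreated *A. cahirinus* at 24 h, low in all mouse groups at 12 d except passaged cells, and *E2f1* stays between group means of 44.6 and 53.6 CPM in mice throughout.

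The first question was how the module answers radiation at 24 h. In *A. cahirinus*, 6 of the 10 genes passed the test at 20 Gy, against 3.59% of all genes tested: *E2f7*, *E2f8*, *Rbl1*, *Foxm1* and *Mybl2* fell and *Rbl2* rose. With the block 8 passed, against 24.1%, the additional genes being *E2f1* and *E2f2*, both lower. At 10 Gy 7 passed, against 3.73%, and 8 with the block, against 27.6%. In C56BL6 mice 0 of 10 passed at 20 Gy, where 0.0895% of all genes did, with 3 at an unadjusted p under 0.05 and 1 by DESeq2. The block raised this to 3 (*E2f1* and *Rb1* higher, *Rbl1* lower), against 17.6%. At 10 Gy it was 0 (against 0.007%, 3 at an unadjusted p under 0.05 and 0 by DESeq2) and 4 with the block (against 11.5%), or 2 when number 2 or 3 was left out. In wild mice none passed at 20 Gy, as for all genes (0%), with 4 at an unadjusted p under 0.05 and 0 by DESeq2, and 5 with the block, against 12.5%. At 10 Gy none passed in wild mice without or with the block, and the share of all genes was 0% in both, with 4 and 5 members at an unadjusted p under 0.05 and 3 by DESeq2. Both doses are set against the same untreated libraries.

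The *A. cahirinus* calls at 24 h depended on numbers 1 and 3. Without the block, the count at 20 Gy was 0 when number 1 or number 3 was left out, 7 without number 2 and 6 without number 4. At 10 Gy it was likewise 0 without number 1 or 3. With the block it lay between 7 and 9 at 20 Gy and between 8 and 10 at 10 Gy, whichever number was left out. In wild mice at 10 Gy, leaving out number 1, with its shallow library, raised the blocked count from 0 to 6 (*E2f7*, *E2f8*, *Rbl1*, *Foxm1* and *Mybl2* lower, *Rb1* higher). In wild mice at 20 Gy the blocked count was 6 without number 1 but 0 without number 2, 1 without number 3 and 0 without number 4.

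**Figure D2:**
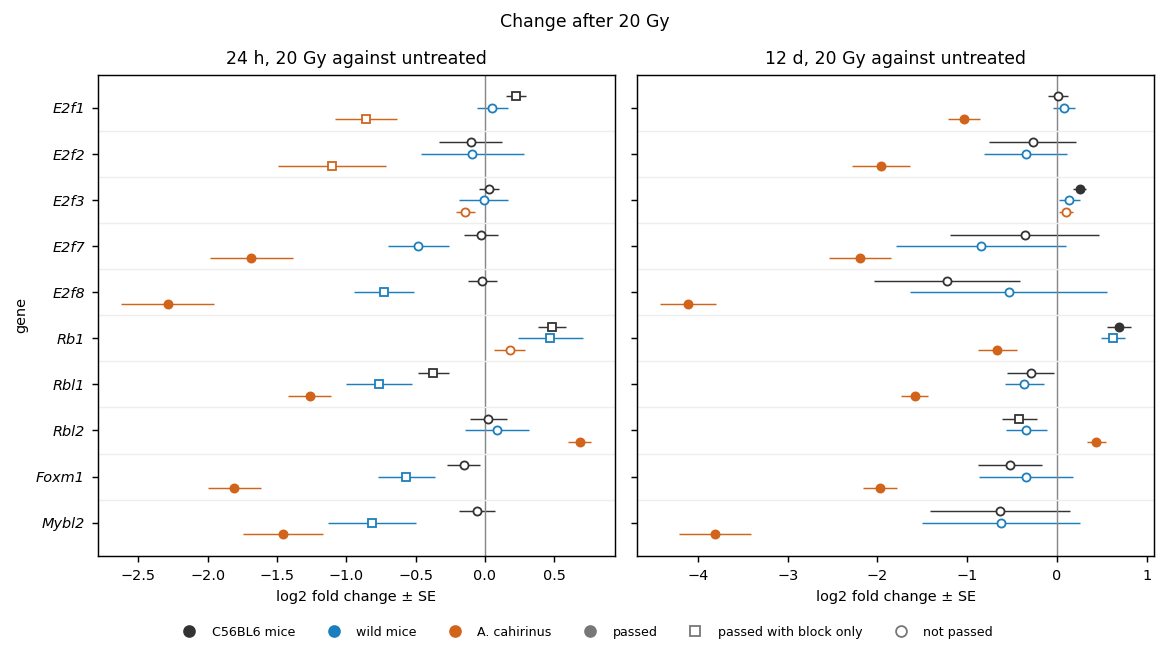
log2 fold change (20 Gy against untreated, ± SE, n = 4 libraries a group) of each gene at 24 h (left) and 12 d (right), coloured by population. Filled circles passed the test, open squares passed it only with the replicate block and open circles did not pass. At 24 h the *A. cahirinus* points of *E2f7*, *E2f8*, *Foxm1* and *Mybl2* lie between -1.46 and -2.29, and at 12 d those of *E2f8* and *Mybl2* at -4.11 and -3.81.

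Among the activating E2Fs, *E2f1* was lower in irradiated *A. cahirinus* and nearly level in both mice. E2F1 drives S phase genes and can also promote apoptosis. In untreated *A. cahirinus* at 24 h its level was 52.4, 38.2, 57.3 and 67.6 CPM in numbers 1 to 4, and after 20 Gy it was 25.6, 20.9, 31.8 and 39.6 CPM. Each number was lower after 20 Gy than untreated, although the highest irradiated library lay above the lowest untreated one. The log2 fold change was -0.86 (SE 0.22, adjusted p = 0.083) and passed only with the block, at -0.87 (SE 0.07, adjusted p = 1.20e-05). At 10 Gy *E2f1* fell by 1.03 on the log2 scale without the block (adjusted p = 0.032). In C56BL6 mice the untreated values were 46.7, 44.3, 44.1 and 43.3 CPM and those at 20 Gy 45.4, 53.5, 54.6 and 54 CPM. In this set 3 numbers were higher and number 1 was lower after irradiation, and the blocked change was 0.22 (SE 0.06, adjusted p = 0.028). Wild mice showed 46.5 ± 3.79 CPM untreated and 47 ± 5.3 CPM at 20 Gy, a change that did not pass (0.05 on the log2 scale).

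The same arrangement held at 12 d. In *A. cahirinus* it fell from 27.4, 23.5, 31.5 and 37.9 CPM untreated to 14.1, 11.6, 16.4 and 16.4 CPM at 20 Gy, with no overlap between the groups and a log2 change of -1.03 (SE 0.18, adjusted p = 0.0037). In C56BL6 mice the means were 47.9 ± 5.88 and 46.8 ± 4.87 CPM, and in wild mice 52.1 ± 2.92 and 53.6 ± 7.0 CPM. Neither mouse change passed (adjusted p = 0.94 and 0.84), and without the libraries labelled number 1 the wild log2 change was 0.10 (SE 0.16, adjusted p = 0.965). Over all 7 groups the *E2f1* group means spanned 1.16-fold in C56BL6 mice, 1.15-fold in wild mice and 3.69-fold in *A. cahirinus*. Passaged and untreated C56BL6 cells, in which *Foxm1* differed by 2.77 on the log2 scale, had *E2f1* at 47.8 ± 1.85 and 47.9 ± 5.88 CPM.

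*E2f2*, an activating E2F best known from haematopoietic cells, had the lowest levels, with group means of 0.446 to 1.94 CPM over all groups. In *A. cahirinus* it fell at 12 d from 1.49, 1.54, 1.75 and 2.27 CPM to 0.219, 0.444, 0.536 and 0.587 CPM at 20 Gy, a log2 change of -1.96 (SE 0.33, adjusted p = 0.0032) with no overlap. The lowest of these values still exceeded the floor of 3 counts. At 24 h the *A. cahirinus* decrease passed only with the block (-1.07, SE 0.31, adjusted p = 0.032). In mice the radiation changes of *E2f2* did not pass at either time, nor in wild mice at 12 d without the libraries labelled number 1 (adjusted p = 0.985 at 20 Gy).

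*E2f3*, which encodes an activating and a repressive isoform that counts per gene do not separate, changed little with radiation. In *A. cahirinus* its means were 42.1 ± 2.05 and 37.9 ± 1.86 CPM at 24 h and 35.6 ± 1.92 and 38 ± 2.93 CPM at 12 d for 0 and 20 Gy. The 24 h groups did not overlap, but neither change passed in either fit. In C56BL6 mice it rose at 12 d from 34.3, 32.6, 30.2 and 29.4 CPM to 37.3, 36.6, 37 and 34.5 CPM, by 0.25 (SE 0.07, adjusted p = 0.038) on the log2 scale. The irradiated libraries were all above the untreated ones, by a small margin. This call was lost without number 3 or number 4. In wild mice the same change was 0.14 (SE 0.12, adjusted p = 0.67), or 0.18 (SE 0.16, adjusted p = 0.905) without the libraries labelled number 1.

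Both atypical repressors, *E2f7* and *E2f8*, fell in irradiated *A. cahirinus*. Untreated *E2f8* at 24 h was 36.7, 28.1, 41.6 and 59.6 CPM and dropped to 6.5, 5.35, 7.8 and 14 CPM at 20 Gy. No irradiated library reached the lowest untreated one, and the log2 fold change was -2.29 (SE 0.34, adjusted p = 0.0097). *E2f7* went from 16.1, 10.7, 18 and 22.4 to 4.97, 2.93, 5.69 and 7.16 CPM, again without overlap, at -1.69 (SE 0.30, adjusted p = 0.019). In C56BL6 mice neither passed at 24 h, with *E2f8* at 14.9 ± 0.932 CPM untreated and 14.7 ± 1.68 CPM at 20 Gy (log2 fold change -0.02, SE 0.10, adjusted p = 0.98). In wild mice *E2f8* was 6.36, 8.33, 8.82 and 10.2 CPM untreated and 6.0, 4.42, 5.57 and 3.79 CPM at 20 Gy. All irradiated wild values were below all untreated ones, and the decrease passed with the block at -0.73 (SE 0.18, adjusted p = 0.026). The wild *E2f7* decrease did not pass in either fit (adjusted p = 0.071 with the block).

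The 12 d values of *E2f8* showed the largest fold among the E2Fs. In *A. cahirinus* it fell from 10.3, 12.9, 15.4 and 21.7 CPM to 0.563, 0.76, 1.07 and 1.06 CPM, a log2 change of -4.11 (SE 0.31, adjusted p = 1.63e-04). *E2f7* fell from 5.11 ± 0.85 to 1.1 ± 0.491 CPM, with a change of -2.20 (SE 0.34, adjusted p = 0.0024). Untreated C56BL6 cells at 12 d had little of either: *E2f8* was 6.39, 1.02, 0.491 and 0.816 CPM and *E2f7* 5.37, 0.839, 0.557 and 0.392 CPM. Number 1, with *Krt5* and *Krt14* mRNA, was far above the other 3 for both genes. The change at 20 Gy did not pass in C56BL6 mice for *E2f8* (-1.22, SE 0.81, adjusted p = 0.3), and without number 1 its log2 change was -0.09 (SE 0.35, adjusted p = 0.86). Whether a keratinocyte share contributes to the high number 1 values was not tested. In wild mice *E2f8* was 1.47, 0.131, 0.199 and 3.62 CPM untreated and 1.34, 0.519, 0.107 and 1.67 CPM at 20 Gy, groups that overlapped (log2 change -0.54 (SE 1.09, adjusted p = 0.89), or -0.75 (SE 1.46, adjusted p = 0.97) without the libraries labelled number 1).

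The pocket protein genes moved in different directions. *Rbl2* encodes p130, the pocket protein that predominates in quiescent cells. In *A. cahirinus* at 24 h it rose from 28.5, 35.6, 28.9 and 31.5 CPM to 52.2, 50.1, 48 and 48.7 CPM, by 0.68 (SE 0.09, adjusted p = 0.0053) on the log2 scale, and the groups did not overlap. It rose at 12 d as well, from 52.4, 57, 46.3 and 52.2 CPM to 72.1, 82.9, 61 and 64.5 CPM (0.44, SE 0.11, adjusted p = 0.016). At 24 h the mouse levels were 25.9 ± 4.22 and 26.3 ± 3.22 CPM in C56BL6 mice, and 25.6 ± 6.61 and 26.5 ± 5.4 CPM in wild mice, and neither difference passed. At 12 d the C56BL6 change had the opposite sign: 41.5, 60.1, 72 and 69 CPM untreated against 33.1, 44.9, 51.4 and 45.9 CPM at 20 Gy. Each number was lower after irradiation although the groups overlap, and the decrease passed with the block (-0.41, SE 0.06, adjusted p = 0.0028) and, without it, when number 1 was left out (-0.46, SE 0.09, adjusted p = 0.0084). In wild mice at 12 d *Rbl2* was 51.8, 60.1, 53.9 and 39.8 CPM untreated and 33, 56.5, 42.3 and 27 CPM at 20 Gy, lower in 4 of 4 numbers with overlapping groups. That change did not pass without the block (-0.34, SE 0.23, adjusted p = 0.58) or with it (-0.38, SE 0.11, adjusted p = 0.061), nor without the libraries labelled number 1 (-0.26, SE 0.30, adjusted p = 0.94, or -0.30, SE 0.13, adjusted p = 0.25 with the block). In the mouse annotation *Rbl2* shares 4194 exonic bases with *Aktip* on the opposite strand, and counting ignored strand, so its mouse level is uncertain.

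*Rb1* showed the reverse arrangement at 12 d. In *A. cahirinus* it fell from 125, 84.9, 118 and 123 CPM to 82.2, 45, 70.9 and 85.2 CPM at 20 Gy, a log2 change of -0.66 (SE 0.22, adjusted p = 0.049). Number 2 was lowest in both groups, and its untreated value lay within the irradiated range, so the groups overlap. In C56BL6 mice *Rb1* rose from 18, 24.4, 22.5 and 23.3 CPM to 27.9, 39.6, 35.5 and 34.6 CPM, without overlap, by 0.69 (SE 0.13, adjusted p = 0.0081). Wild mice had 20.6, 22, 22.4 and 19.6 CPM untreated and 34.8, 31.1, 36.1 and 25.3 CPM at 20 Gy. The wild libraries did not overlap either, and the increase passed with the block (0.61, SE 0.10, adjusted p = 0.012) but not when the libraries labelled number 1 were left out (0.55, SE 0.12, adjusted p = 0.083). At 24 h the *Rb1* increase passed with the block in C56BL6 mice (0.48, SE 0.06, adjusted p = 1.10e-04) and wild mice (0.53, SE 0.13, adjusted p = 0.025), and in *A. cahirinus* it did not (0.17, SE 0.08, adjusted p = 0.14). *Lpar6* and *Rcbtb2* overlap *Rb1* exons by 408 and 488 bases on the opposite strand in GENCODE vM39. Overlap in the release used for counting was not measured, so part of the mouse *Rb1* reads is uncertain.

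*Rbl1*, the gene of p107, moved with *E2f7* and *E2f8* in direction. Its 24 h level in *A. cahirinus* fell from 32.1, 29.1, 36.4 and 47.4 CPM to 15.3, 12.9, 14.7 and 17.1 CPM (-1.26, SE 0.16, adjusted p = 0.0053), with no overlap. In C56BL6 mice it was 28.4, 23.4, 31 and 24.6 CPM untreated and 20.8, 19.6, 23.1 and 19.2 CPM at 20 Gy, lower in 4 of 4 numbers and without overlap, and passed with the block (-0.37, SE 0.06, adjusted p = 0.0011). It was the one gene of the 10 to be lower at 20 Gy with the block in all 3 populations at 24 h, with wild mice at -0.72 (SE 0.15, adjusted p = 0.012). At 12 d it fell in *A. cahirinus* from 14.2 ± 1.81 to 4.73 ± 0.75 CPM (-1.58, SE 0.15, adjusted p = 3.49e-04), while the mouse changes did not pass (adjusted p = 0.44 and 0.52). The wild value without the libraries labelled number 1 was -0.32 (SE 0.30, adjusted p = 0.917).

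*Foxm1* and *Mybl2*, the activators of late cell cycle genes, showed this contrast in detail. At 24 h *Foxm1* in *A. cahirinus* was 74.2, 66.6, 84.2 and 92.9 CPM untreated and 19.8, 16.3, 24.6 and 29.5 CPM at 20 Gy. The lowest untreated library exceeded the highest irradiated one, and the log2 fold change was -1.81 (SE 0.19, adjusted p = 0.0034). *Mybl2* fell from 57.9, 43.1, 74.2 and 84.3 CPM to 17.6, 15.7, 26.7 and 33.9 CPM (-1.46, SE 0.29, adjusted p = 0.029). In bulk cultures such as these, fewer cycling cells and less of the mRNA per cycling cell cannot be told apart. In C56BL6 mice *Foxm1* was 100.1, 73.2, 86.7 and 91.6 CPM untreated and 76.8, 65.7, 88.8 and 83.8 CPM at 20 Gy, overlapping groups whose difference did not pass (-0.15, SE 0.12, adjusted p = 0.77). *Mybl2* in the same cells was 18 ± 2.61 and 17.2 ± 2.01 CPM (-0.06, SE 0.13, adjusted p = 0.94). At 10 Gy, however, both were lower in C56BL6 mice with the block, *Foxm1* at -0.25 (SE 0.05, adjusted p = 0.007) and *Mybl2* at -0.27 (SE 0.07, adjusted p = 0.027).

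In GENCODE vM39 *Foxm1* shares 382 exonic bases with *Rhno1* on the opposite strand, and overlap in the release used for counting was not measured. In wild mice at 24 h *Mybl2* was 13.5, 13.5, 14.8 and 14.3 CPM untreated and 13.7, 6.08, 6.72 and 4.67 CPM at 20 Gy. Number 1 stayed at its untreated level and the other 3 were lower. The decrease passed with the block (-0.92, SE 0.21, adjusted p = 0.015), and without number 1 the blocked value was -1.25 (SE 0.15, adjusted p = 1.43e-04). *Foxm1* followed, at 66.3 ± 13.8 and 43.6 ± 10.8 CPM (-0.58, SE 0.13, adjusted p = 0.013 with the block). At 10 Gy, without number 1, the wild blocked changes were -1.37 (SE 0.11, adjusted p = 4.33e-05) for *Mybl2* and -0.90 (SE 0.07, adjusted p = 4.26e-05) for *Foxm1*.

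By 12 d the *A. cahirinus* cells given 20 Gy had little *Mybl2* mRNA. It was 8.1, 13.5, 12.8 and 11.8 CPM untreated and 0.469, 0.444, 1.5 and 0.81 CPM at 20 Gy, a log2 change of -3.81 (SE 0.40, adjusted p = 5.05e-04). *Foxm1* fell from 17.4, 18.4, 23.4 and 25.4 CPM to 4.66, 4.91, 6.94 and 4.97 CPM (-1.97, SE 0.18, adjusted p = 3.39e-04). Untreated mouse cells were already low at this time: *Foxm1* was 22.5, 10.5, 7.4 and 8.32 CPM in C56BL6 mice and 10.8, 6.67, 3.52 and 21.5 CPM in wild mice. The C56BL6 number 1 value was the highest of its 4, as for *E2f7*, *E2f8* and *Rbl1*. After 20 Gy *Foxm1* was 8.21 ± 1.73 CPM in C56BL6 and 8.19 ± 2.52 CPM in wild mice, and neither change passed (-0.52, SE 0.36, adjusted p = 0.31, and -0.34, SE 0.53, adjusted p = 0.84). The wild *Foxm1* change without the libraries labelled number 1 was -0.38 (SE 0.70, adjusted p = 0.971).

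Counted over the module at 12 d, 9 of 10 genes passed in *A. cahirinus* at 20 Gy both without and with the block, where 31.8% and 49.2% of all genes did. Only *E2f3* of the 10 did not. Leaving out any 1 number gave 7 to 9 without the block and 9 with it. In C56BL6 mice 2 of 10 passed, *E2f3* and *Rb1*, both higher, against 26.5% of all genes, and 3 with the block, against 47.5%. The unblocked C56BL6 count was 3 without number 1, 1 without number 2 and 0 without number 3 or number 4. In wild mice 0 passed, against 0.0694% of all genes, with 1 at an unadjusted p under 0.05 and 1 by DESeq2. With the block 1 passed, *Rb1*, against 15.4%, and without the libraries labelled number 1 none did. The C56BL6 counts are below the share of all genes.

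At 12 d the doses differed in *A. cahirinus*. At 10 Gy none of the 10 passed without the block, against 2.87% of all genes, with 0 at an unadjusted p under 0.05 and 0 by DESeq2. With the block 3 passed, all lower (*E2f1*, *E2f8* and *Rb1*), against 27.5%. *Mybl2* at 10 Gy was 11, 5.89, 20.7 and 14.6 CPM, with number 2 the lowest and number 3 the highest, and its change from untreated did not pass (0.17, SE 0.34, adjusted p = 0.81). The direct comparison of 20 with 10 Gy called *Mybl2* (-3.99, SE 0.53, adjusted p = 0.037) and *E2f8* (-3.32, SE 0.53, adjusted p = 0.044), 2 of 10 against 0.457% of all genes. With the block 8 of 10 passed, against 17.9%, and *E2f3* and *Rb1* did not. Without the block the count was 0 without number 1, 3 or 4, and 7 without number 2, and with it 5 without number 1, 3 or 4. The blocked count at 10 Gy was 0 without number 1 or 3. In C56BL6 mice at 10 Gy 0 passed (against 20.9%, 2 at an unadjusted p under 0.05 and 1 by DESeq2), and with the block *Rb1* was higher and *Rbl2* lower, against 38.8%. In wild mice 0 passed (against 0.264%, 1 at an unadjusted p under 0.05 and 0 by DESeq2), and with the block *Rbl2* alone was lower, against 12.7%, a call lost without number 1. Between 20 and 10 Gy none of the 10 passed in either mouse in either fit (shares of all genes 0% and 0.297% in C56BL6 and 0% and 0.257% in wild mice), with 0 and 0 at an unadjusted p under 0.05 without the block, 3 and 5 with it, and 0 and 0 by DESeq2. In wild mice 2 passed with the block when number 3 was left out.

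The passaged cells at 12 d set radiation beside another state of unirradiated cultures. In C56BL6 mice 7 of 10 genes passed against untreated cells of the same day in both fits, against 49.6% and 60.1% of all genes: *E2f3*, *E2f7*, *E2f8*, *Rbl1*, *Foxm1* and *Mybl2* were higher and *Rbl2* lower. Passaged *Mybl2* was 24, 14.1, 16.3 and 15.6 CPM, against 5.47, 1.35, 0.459 and 0.816 CPM in untreated cells. No library overlapped, and the log2 fold change was 3.12 (SE 0.72, adjusted p = 0.008), or 4.15 (SE 0.32, adjusted p = 8.55e-05) without number 1. *Foxm1* was higher by 2.77 (SE 0.37, adjusted p = 8.31e-04), at 82.9 ± 17.3 CPM. *Rbl2* fell from 60.6 ± 13.7 to 28.3 ± 3.33 CPM (-1.10, SE 0.18, adjusted p = 0.0018). The count was 8 without number 1 and 4 without number 2.

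Wild mice had 3 of 10 past the threshold for passaging (*Rbl1* and *Foxm1* higher, *Rbl2* lower), against 10.7% of all genes, and 6 with the block, against 31.9%. Without the libraries labelled number 1 the count was 0 without the block and 5 with it, and the unblocked count was 1 without number 2 and 0 without number 4. Wild *Foxm1* was 48.8, 68.9, 34.6 and 65.6 CPM in passaged cells, above all untreated libraries of that day, at 2.35 (SE 0.54, adjusted p = 0.034) on the log2 scale. Without the libraries labelled number 1 it was 2.73 (SE 0.40, adjusted p = 0.025) with the block. In *A. cahirinus* 6 passed, against 25.8%, and 7 with the block, against 49.5%. *E2f7*, *Rbl1*, *Foxm1* and *Mybl2* were higher and *Rb1* and *Rbl2* lower, and *E2f8* was added, higher, with the block. *Mybl2* there was 30.7, 12, 32.2 and 34.9 CPM, of which number 2 overlapped the untreated range, at a log2 change of 1.23 (SE 0.32, adjusted p = 0.025). *Rb1* fell to 65.5, 57.5, 57.5 and 64.9 CPM, below every untreated library (-0.89, SE 0.12, adjusted p = 0.0022), whereas in mice the difference did not pass (adjusted p = 0.84 in C56BL6 and 0.81 in wild mice, or 0.943 without the libraries labelled number 1). The unblocked *A. cahirinus* count was 1 without number 1, 2 without number 3 and 3 without number 4.

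Set against passaged cells, the 20 Gy cells of all 3 populations were low in *E2f7*, *E2f8*, *Rbl1*, *Foxm1* and *Mybl2*. In this comparison, which shares its libraries with those above, 9 of 10 passed in C56BL6 mice in both fits (against 41.6% and 56.1% of all genes), 5 in wild mice (against 10.5%) and 7 with the block (against 38%), and 8 in *A. cahirinus* in both fits (against 42.5% and 56%). *Foxm1* differed by -3.32 (SE 0.19, adjusted p = 2.21e-05) in C56BL6 mice, -2.71 (SE 0.31, adjusted p = 0.0058) in wild mice and -3.01 (SE 0.22, adjusted p = 6.49e-05) in *A. cahirinus*. Without the libraries labelled number 1 the wild value was -2.82 (SE 0.13, adjusted p = 3.87e-04) with the block. *Rbl2* was higher in C56BL6 mice (0.65, SE 0.15, adjusted p = 0.0079) and *A. cahirinus* (1.13, SE 0.13, adjusted p = 3.93e-04), and in wild mice with the block (0.59, SE 0.14, adjusted p = 0.013). *Rb1* was higher in C56BL6 mice (0.70, SE 0.12, adjusted p = 0.0028) and, with the block, in wild mice (0.55, SE 0.10, adjusted p = 0.0054), and did not pass in *A. cahirinus* (0.22, SE 0.20, adjusted p = 0.39). *E2f1* was lower in *A. cahirinus* (-1.26, SE 0.21, adjusted p = 0.0021) and did not pass in mice (adjusted p = 0.93 and 0.77, the latter 0.943 without the libraries labelled number 1). With the block and without the libraries labelled number 1, the wild values were 0.66 (SE 0.16, adjusted p = 0.0247) for *Rbl2* and 0.51 (SE 0.13, adjusted p = 0.0303) for *Rb1*. The wild count was 0 without the libraries labelled number 1, 2 without number 2 and 0 without number 4, while the blocked count stayed at 7 whichever number was left out.

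**Figure D3:**
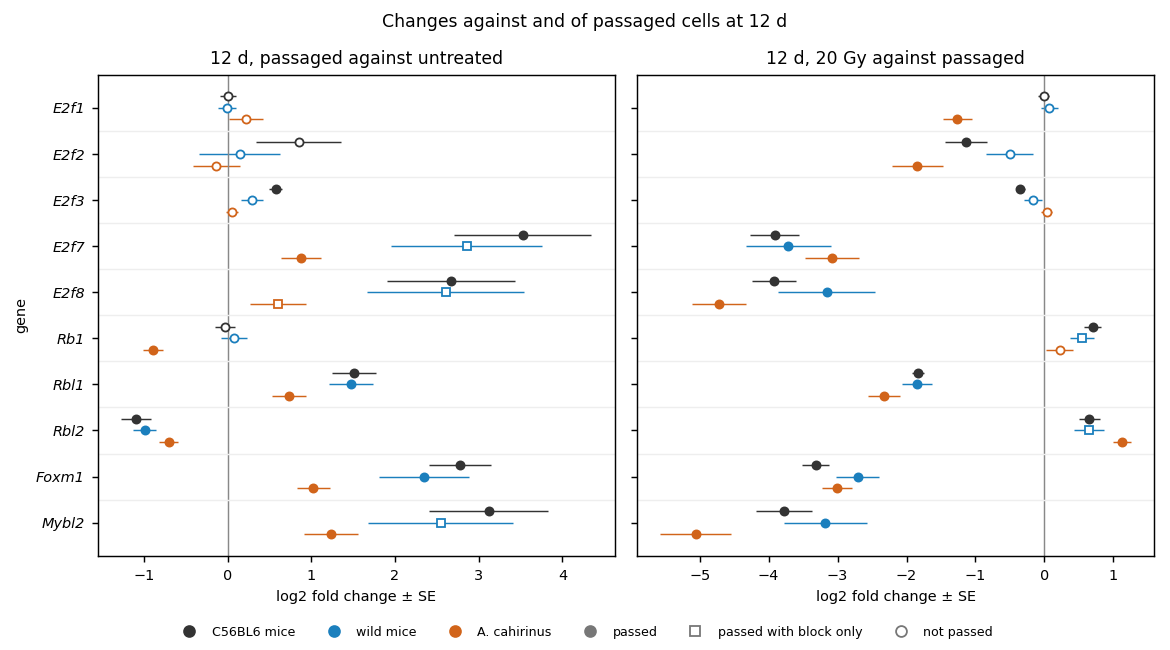
log2 fold change (± SE, n = 4 libraries a group) at 12 d of passaged against untreated cells (left) and of 20 Gy against passaged cells (right), with symbols as in the plot of the change after 20 Gy. *E2f7*, *E2f8*, *Rbl1*, *Foxm1* and *Mybl2* lie right of 0 on the left and between -1.83 and -5.06 on the right in every population.

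Whether the response itself differed between species was tested as an interaction on the 18109 symbols found once in each table. For 20 Gy at 24 h, *A. cahirinus* differed from C56BL6 mice in 6 of 10 genes, against 2.09% of all genes, and in 8 with the block, against 16.8%. The difference, *A. cahirinus* minus mouse on the log2 scale, was -2.28 (SE 0.37, adjusted p = 0.0038) for *E2f8*, -1.67 (SE 0.34, adjusted p = 0.015) for *E2f7*, -1.66 (SE 0.23, adjusted p = 0.0025) for *Foxm1* and -1.41 (SE 0.33, adjusted p = 0.04) for *Mybl2*. *E2f1* (-1.09, SE 0.25, adjusted p = 0.033) and *Rbl1* (-0.90, SE 0.20, adjusted p = 0.025) also differed. *Rbl2* differed in the other direction with the block (0.65, SE 0.10, adjusted p = 3.03e-04). Leaving out number 3 in both populations ended all 6 unblocked calls, leaving out number 1 or 4 left 2, and the blocked count was 7 or 8 in each case. Against wild mice none passed without the block, as for all genes (0%), with 5 at an unadjusted p under 0.05 and 2 by DESeq2. With the block 5 passed, against 7.25%: *E2f1*, *E2f7*, *E2f8* and *Foxm1* more negative in *A. cahirinus* and *Rbl2* more positive.

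At 12 d the 20 Gy response differed between *A. cahirinus* and C56BL6 mice in 7 of 10 genes (against 18.8%) and in 9 with the block (against 38%). *Mybl2* differed by -3.19 (SE 0.92, adjusted p = 0.028) and *E2f8* by -2.89 (SE 0.91, adjusted p = 0.039), and *E2f1*, *Rbl1* and *Foxm1* by -1.05, -1.29 and -1.45. In C56BL6 mice mean *Mybl2* went from 2.02 CPM untreated to 1.26 CPM at 20 Gy, and *E2f8* from 2.18 to 0.902 CPM. In *A. cahirinus* they went from 11.5 to 0.806 CPM and from 15.1 to 0.864 CPM. Whether the low untreated mouse levels contribute to these differences was not tested. The pocket protein genes differed in opposite directions, *Rb1* by -1.35 (SE 0.26, adjusted p = 0.003) and *Rbl2* by 0.86 (SE 0.24, adjusted p = 0.025). The unblocked count was 9 without number 1, 3 without number 2, 0 without number 3 and 2 without number 4, and the blocked count 7 to 9. Against wild mice *E2f1*, *Rb1* and *Rbl1* passed (against 3.35%), with *Rb1* at -1.27 (SE 0.27, adjusted p = 0.025), and 9 passed with the block (against 23.3%). Without number 1, which here leaves out that number in both populations, the counts were 0 and 6, and without number 3 or 4 the unblocked count was 0. For *Rb1* the blocked value without number 1 was -1.26 (SE 0.16, adjusted p = 0.0091).

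The response to passaging was compared in the same way. Against C56BL6 mice 4 of 10 passed, near the share of all genes (27.7%), and 8 with the block (against 45.2%). *E2f7* (-2.67, SE 0.84, adjusted p = 0.03) and *Foxm1* (-1.76, SE 0.42, adjusted p = 0.0078) were raised less in *A. cahirinus*. *E2f3* differed by -0.53 (SE 0.10, adjusted p = 0.0019), its own change in *A. cahirinus* being 0.05 (SE 0.07, adjusted p = 0.656), and *Rb1* differed by -0.87 (SE 0.18, adjusted p = 0.003). The unblocked count was 7 without number 1, 1 without number 3 and 2 without number 4, and the blocked count 5 without number 3 or 4. Against wild mice *Rb1* alone passed (-0.96, SE 0.20, adjusted p = 0.02), against 3.46%, and 5 with the block, against 23.8%. Without the block it was lost without number 1, 3 or 4, and the blocked count was 3 without number 1 and 2 without number 2 or 3.

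The genes that the module is known to control were counted from 2 lists, also chosen with earlier results of these data known. Of 22 S phase genes bound by E2F, 19 fell in *A. cahirinus* at 24 h and 20 Gy and none rose, against 3.59% of all genes called, with a median log2 fold change of -1.19 beside 0.03 over all genes. Of 22 genes of G2 and mitosis driven by FOXM1 and B-Myb, 18 fell and none rose (median -1.38). In C56BL6 mice none of either list passed at 24 h (against 0.0895%), with medians of -0.07 and 0.15. With the block 4 S phase genes were lower, while 7 mitotic genes were higher and 1 lower, against 17.6% of all genes. In wild mice none passed without the block (as for all genes, 0%, medians -0.51 and -0.25), and 10 and 8 were lower with it (against 12.5%). At 12 d and 20 Gy 21 of 22 and 18 of the 20 mitotic genes that passed the expression filter fell in *A. cahirinus*, against 31.8%, with medians of -1.54 and -2.60. The C56BL6 counts at 12 d were 2 of 22 in each list, all lower, against 26.5% of all genes, with medians of -0.39 and -1.22. With the block 8 and 13 were lower and 1 S phase gene higher, against 47.5%. These unblocked counts are below the share of all genes, and that of the S phase list with the block is near it. In wild mice at 12 d none passed (against 0.0694%, medians -0.12 and -0.59), and with the block 3 S phase genes (2 higher, 1 lower) and 2 mitotic genes (lower) did, against 15.4%. After passaging 22 and 21 of 22 rose in C56BL6 mice, against 49.6% of all genes. In wild mice 16 and 5 rose (against 10.7%) and 22 and 22 with the block (against 31.9%). In *A. cahirinus* 7 and 17 rose (against 25.8%) and 17 and 21 with the block (against 49.5%), the 7 being near the share of all genes. Without the libraries labelled number 1, 0 and 0 rose in wild mice (against 0%), or 19 and 19 with the block (against 13.7%).

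The genes named here were picked from their lists for the size of their change in irradiated *A. cahirinus* at 12 d. Their values there are therefore descriptions, and their contrast with mice is not independent of that choice. From the S phase list, *Cdc6*, which licenses replication origins, fell in *A. cahirinus* from 5.33 ± 0.764 to 0.321 ± 0.136 CPM at 12 d (-4.01, SE 0.30, adjusted p = 1.63e-04). In C56BL6 mice it was 1.77 ± 1.32 and 1.28 ± 0.359 CPM and in wild mice 1.77 ± 1.43 and 1.71 ± 1.04 CPM, neither past the threshold (in wild mice without the libraries labelled number 1 the log2 change was -0.09, adjusted p = 0.997). *Uhrf1*, a maintenance factor of DNA methylation, fell by 2.93 (SE 0.27, adjusted p = 3.13e-04) in *A. cahirinus*, and its change was -0.83 (SE 0.28, adjusted p = 0.045) in C56BL6 mice with the block and -0.44 (SE 0.61, adjusted p = 0.82) in wild mice. The mitotic kinase gene *Plk1* fell by 4.56 (SE 0.30, adjusted p = 8.75e-05) and the cytokinesis motor *Kif23* fell by 4.52 (SE 0.35, adjusted p = 1.75e-04) in *A. cahirinus*. In C56BL6 mice *Plk1* had a log2 change of -1.23 (adjusted p = 0.13) and *Kif23* one of -1.42 (adjusted p = 0.15), with -0.60 and -0.75 in wild mice, and of these 4 values only *Kif23* in C56BL6 mice passed with the block. Without the libraries labelled number 1 the wild changes were -0.52 for *Uhrf1*, -0.77 for *Plk1* and -0.92 for *Kif23* (adjusted p = 0.942 to 0.959).

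Partners of the module were counted in the same way. Of 10 other E2F, DP and MuvB subunits, 3 fell in *A. cahirinus* at 24 h and 3 at 12 d after 20 Gy, with medians of -0.30 and -0.29. The shares of all genes were 3.59% and 31.8%, so the 12 d count is near the background. With the block 7 were lower at 24 h (against 24.1%), and 5 lower and 1 higher at 12 d (against 49.2%). The genes named here were also picked by their change in *A. cahirinus* at 12 d and 20 Gy, so their values there are descriptions. *Lin9*, a MuvB subunit, fell at 24 h by 0.93 (SE 0.13, adjusted p = 0.0088) and at 12 d by 0.92 (SE 0.14, adjusted p = 0.0021), and the histone chaperone gene *Rbbp4* fell at 12 d by 0.49 (SE 0.11, adjusted p = 0.011). In C56BL6 mice *Lin9* was at -0.45 (SE 0.19, adjusted p = 0.12) at 12 d. Its decrease passed with the block (-0.44, SE 0.14, adjusted p = 0.038), though not with the block and without number 1 (-0.38, SE 0.15, adjusted p = 0.069). *Rbbp4* fell there by 0.30 (SE 0.06, adjusted p = 0.011) at 12 d, and in wild mice neither passed (adjusted p = 0.59 and 0.45, or 0.931 and 0.854 without the libraries labelled number 1). Of 15 cyclins, kinases and inhibitors that set RB phosphorylation, 11 passed in *A. cahirinus* at 12 d and 20 Gy, 6 higher and 5 lower, against 31.8% of all genes. In C56BL6 mice 9 passed, 4 higher and 5 lower, against 26.5%. In wild mice 1 passed, lower, against 0.0694%, and 9 with the block, 4 higher and 5 lower, against 15.4%. *Cdkn1a*, the p21 gene, rose in *A. cahirinus* at both times, by 1.30 (SE 0.12, adjusted p = 0.0031) and 1.36 (SE 0.18, adjusted p = 0.0012). In C56BL6 mice its 24 h increase passed with the block (0.48, SE 0.06, adjusted p = 6.01e-05) and its 12 d increase without it (0.88, SE 0.18, adjusted p = 0.011). In wild mice both passed with the block, at 1.28 (SE 0.17, adjusted p = 0.001) and 2.44 (SE 0.21, adjusted p = 0.003). *Ccnd1*, the cyclin D1 gene, rose at 12 d in *A. cahirinus* (1.51, SE 0.35, adjusted p = 0.013) and C56BL6 mice (1.80, SE 0.33, adjusted p = 0.0065), and with the block in wild mice (2.0, SE 0.35, adjusted p = 0.015).

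Several of these list counts depended on number 1. Without it, no S phase or mitotic gene passed in *A. cahirinus* at 24 h and 20 Gy without the block (against 0.0602% of all genes), and 22 and 22 of 22 were lower with it (against 26.4%). After passaging the *A. cahirinus* counts without number 1 were 0 and 5 (against 6.03%), or 10 and 21 with the block (against 37.6%). In C56BL6 mice, number 1 is the one with *Krt5* and *Krt14* mRNA. Leaving it out gave 5 S phase genes higher and 2 lower and 17 mitotic genes higher at 24 h with the block, against 21.8%. At 12 d it gave 6 S phase and 5 mitotic genes lower without the block (against 40%), and 6 and 7 with it (against 52.1%), with 1 S phase gene higher in each fit. The C56BL6 calls of *Uhrf1* (-0.54, SE 0.21, adjusted p = 0.073) and *Kif23* (-0.66, SE 0.27, adjusted p = 0.074) were lost with the block. In wild mice at 24 h the blocked counts became 19 and 10 lower, against 16.6%. Of the regulators of RB phosphorylation, 2 passed with the block in wild mice at 12 d (against 2%) and 5 without it in *A. cahirinus* (against 12%), where the unblocked calls of *Rbbp4* (-0.51, SE 0.14, adjusted p = 0.064) and *Ccnd1* (1.46, SE 0.49, adjusted p = 0.1) at 12 d and of *Lin9* at 24 h (-1.03, SE 0.15, adjusted p = 0.07) were lost. The wild 12 d increase of *Cdkn1a* still passed with the block (2.43, SE 0.28, adjusted p = 0.028), and that of *Ccnd1* did not (1.95, SE 0.44, adjusted p = 0.084).

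**Figure D4:**
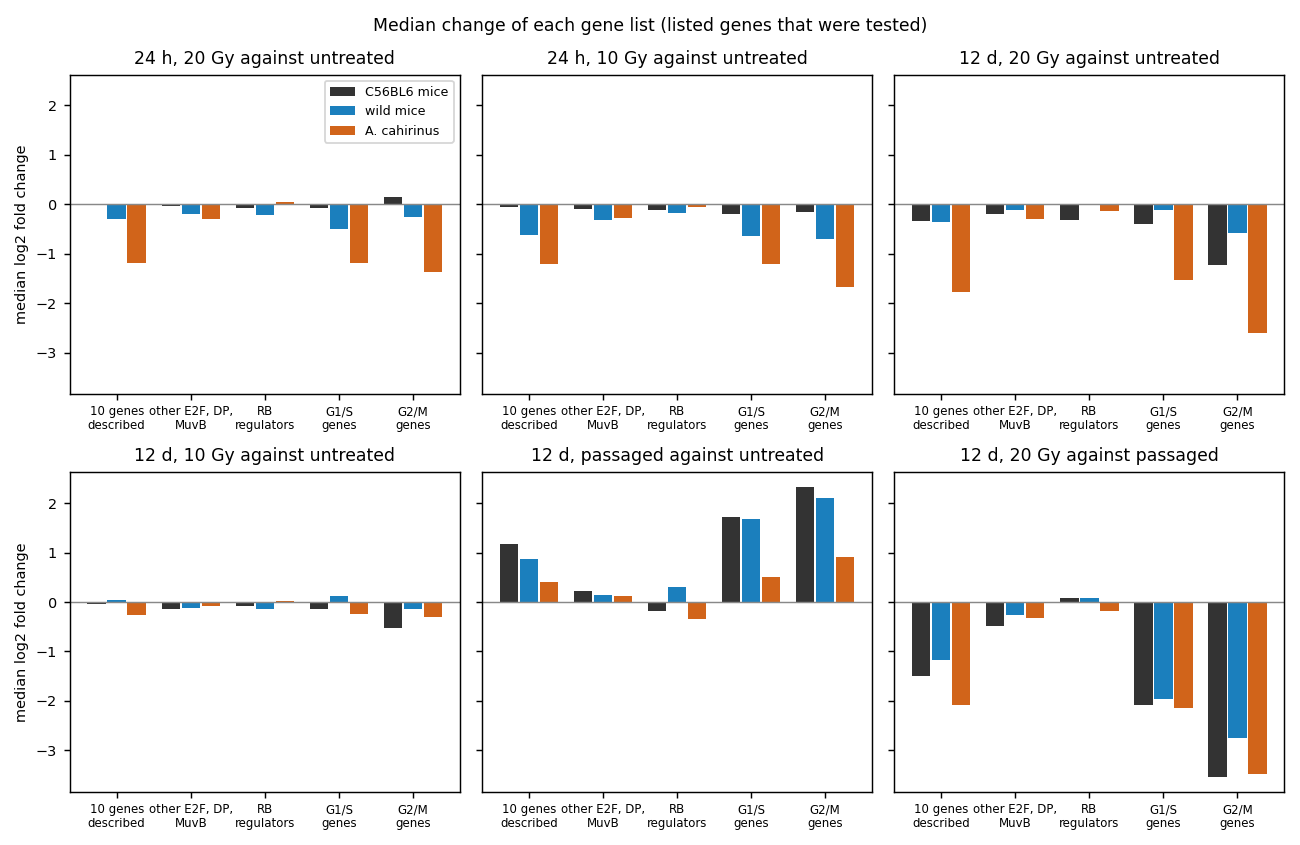
Median log2 fold change (bars) of the tested genes of each list, including the 10 genes described, in 6 comparisons, coloured by population. The S phase and mitotic lists have medians of -1.19 and -1.38 in *A. cahirinus* at 24 h and 20 Gy and of -0.07 and 0.15 in C56BL6 mice, while passaging gives medians above 0 for both lists in all 3 populations.

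Likeness was described by the mean over populations of Pearson's r of log2 CPM across the 28 libraries of each, among 10522 other genes. These libraries share groups, scaling and batches, so r follows the differences between groups. *Foxm1* was most like *Cdca2*, *Ticrr* and *Clspn* (mean r 0.98), *Mybl2* like *Mcm5*, *Uhrf1* and *Plk1* (mean r 0.98) and *E2f7* like *Ccnf*, *Kif18b* and *Uhrf1* (mean r 0.98). *E2f8* was most like *Ect2*, *Prc1* and *Kif20a* (mean r 0.96 to 0.97) and *Rbl1* like *Pola1*, *Plk4* and *Skp2* (mean r 0.96 to 0.97). Values were lower for *Rbl2*, with *Zhx1*, *Zfyve1* and *Naa60* (mean r 0.87 to 0.89), and for *E2f3*, with *Ankrd27*, *Kpna6* and *Vdac1* (mean r 0.77 to 0.80). The genes nearest to *Rb1* were *Rabgap1*, *N4bp1* and *Dip2c* (mean r 0.74 to 0.78), to *E2f2* *Cdc6*, *Stmn1* and *Aurkb* (mean r 0.73 to 0.74) and to *E2f1* *Pdxp*, *Anapc7* and *Metrn* (mean r 0.64 to 0.66). Spearman's rho moved 17 of these 30 values by more than the spread of r between populations: its means were 0.50 to 0.58 for *E2f1*, 0.62 to 0.69 for *Rb1* and 0.94 to 0.97 for *Foxm1* with the same genes. Within the module, r between *E2f1* and *Foxm1* was 0.95 in *A. cahirinus*, against 0.16 in C56BL6 and -0.27 in wild mice. For *Rbl2* and *Foxm1* it was -0.92, -0.87 and -0.52 in the same order, and for *Rb1* and *Foxm1* -0.26, -0.42 and -0.19. The wild values include the shallow library of number 1 at 10 Gy, in which *Rbl2* was 3.82 CPM against 23.1 to 29 CPM in the other 3 of its group.

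**Figure D5:**
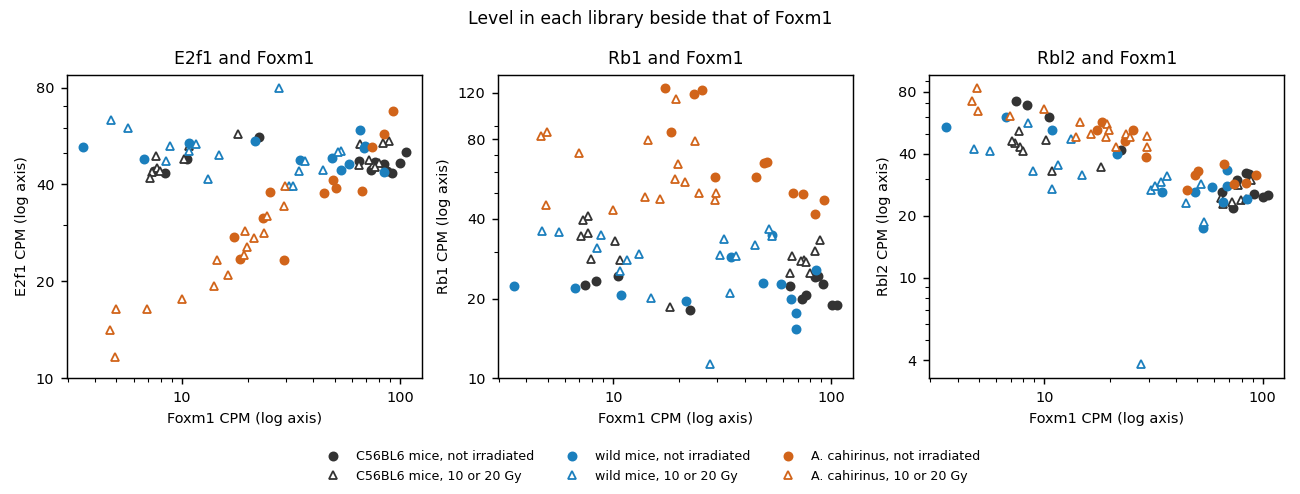
CPM of *E2f1*, *Rb1* and *Rbl2* in each library (y, log axes) against CPM of *Foxm1* (x), coloured by population, with filled circles for cells not irradiated and open triangles for 10 or 20 Gy. *E2f1* follows *Foxm1* in *A. cahirinus* and lies level in mice, and *Rbl2* runs against *Foxm1* (r of -0.92 in *A. cahirinus*).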

How the data were processed

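Read counts per gene were deposited by the authors in 2 tables, made with featureCounts 2.0.3, per the file headers, without a strand option. Mouse reads were counted on GRCm39 with Ensembl release 108 and *A. cahirinus* reads on AcoCah2 by gene name. Gene lengths come from the same deposited tables. Trim Galore and HISAT2 are named in the submitters' processing notes. From the counts, edgeR 4.0.16 (R 4.3.3) was run for 27 comparisons with filterByExpr, TMM scaling and the quasi-likelihood test on the groups compared, and p-values were adjusted over all genes tested. The alternatives were RLE size factors, no filter, DESeq2 1.42.0, all groups in one fit, a replicate block and leaving out each number. Spearman's rho was the alternative for likeness. Libraries with the same number deviated together in every comparison, with a lowest correlation of 0.36 or more. Other pairs had a mean of -0.29 to -0.12, whose sign follows from centring each group on its own mean. Labels of the same number also share a code, so blocked values are given. No label says that numbers are separate animals, so p-values measure the spread between these libraries. The tests were tested on simulated data. In that simulation libraries of one number did not deviate together, so it cannot decide between blocked and unblocked values. Matching of mouse promoters and exonic overlaps between mouse genes used GENCODE vM39, not the release used for counting. The 10 genes and the other lists were chosen with earlier results of these data known. From each other list the 2 genes with the largest absolute change in *A. cahirinus* at 12 d and 20 Gy are named, and for each of the 10 genes the 3 most alike.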

Additional observations from a re-analysis of the deposited data

Results flagged for a closer look

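In 210 sets of 4 libraries (10 genes in 21 groups), 15 held 1 library far from the other 3 by Dixon's criterion. A rate of 1 in 20 would give about 10.5 for independent sets. These sets reuse the same libraries over correlated genes, so no conclusion is drawn from that number. C56BL6 number 1 accounted for 9 of the 15. It was the highest for *E2f7* in untreated (5.37 CPM), 10 Gy (4.49 CPM) and passaged cells (29.9 CPM) at 12 d, and for *E2f8* in untreated (6.39 CPM) and 10 Gy cells (2.73 CPM). It was also the highest for *Rbl1* in untreated (14.4 CPM) and 10 Gy cells (9.30 CPM), and for *Foxm1* at 20 Gy (10.8 CPM). Keratinocyte markers summed to 215 to 826 CPM in these number 1 libraries of 12 d, and their part in these values was not tested. At 24 h and 20 Gy, C56BL6 number 1 was the lowest for *E2f1* (45.4 CPM). The wild library of number 1 at 24 h and 10 Gy was highest for *E2f1* (79.8 CPM) and lowest for *E2f8* (0.204 CPM). Wild number 1 was lowest for *E2f7* in untreated cells at 24 h (13.3 CPM). In *A. cahirinus*, *Foxm1* was highest in number 3 at 12 d and 20 Gy (6.94 CPM), and *Rb1* was lowest in number 2 untreated at 12 d (84.9 CPM) and highest in number 1 at 24 h and 20 Gy (64.2 CPM).

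The response differed between populations by edgeR's interaction test in 21 cases without the block. Values are the *A. cahirinus* change minus the mouse change on the log2 scale. Against C56BL6 mice at 24 h and 20 Gy these were *E2f1* (-1.09), *E2f7* (-1.67), *E2f8* (-2.28), *Rbl1* (-0.90), *Foxm1* (-1.66) and *Mybl2* (-1.41). At 12 d and 20 Gy they were *E2f1* (-1.05), *E2f8* (-2.89), *Rb1* (-1.35), *Rbl1* (-1.29), *Rbl2* (0.86), *Foxm1* (-1.45) and *Mybl2* (-3.19). For passaging they were *E2f3* (-0.53), *E2f7* (-2.67), *Rb1* (-0.87) and *Foxm1* (-1.76). Against wild mice at 12 d and 20 Gy they were *E2f1* (-1.10), *Rb1* (-1.27) and *Rbl1* (-1.21), and for passaging *Rb1* (-0.96). Without number 1 none of these 4 passed without the block, and with it *E2f1*, *Rb1* and the passaging value of *Rb1* did (adjusted p = 0.012, 0.00909 and 0.0399) and *Rbl1* did not (0.0628).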

How the results depend on the processing

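RLE size factors moved none of the 27 counts of called genes by over 1.5 times. No log2 fold change of a gene called without or with the block changed sign under the alternatives checked. That check left out the blocked fits without a number, and DESeq2 values that had no adjusted p. The replicate block moved 13 counts, all upward: in C56BL6 mice to 3 at 24 h and 20 Gy, 4 at 24 h and 10 Gy and 2 at 12 d and 10 Gy, in wild mice to 5 at 24 h and 20 Gy, 1 at each dose of 12 d and 6 for passaging, and in *A. cahirinus* to 3 at 12 d and 10 Gy and 8 for 20 against 10 Gy. Blocked interactions rose to 8 for passaging against C56BL6 mice and, against wild mice, to 5 at 24 h, 9 at 12 d and 5 for passaging. The block removed no call. DESeq2 moved 9 counts: in C56BL6 mice to 1 at 24 h and 20 Gy, 1 at 12 d and 10 Gy and 4 for passaging, in wild mice to 3 at 24 h and 10 Gy, 1 at 12 d and 20 Gy and 6 for passaging, in *A. cahirinus* to 7 for 20 against 10 Gy, and against wild mice to 2 at 24 h and 5 at 12 d. The 4 for C56BL6 passaging leaves out *E2f7*, *E2f8* and *Mybl2*, to which DESeq2 gave no adjusted p, and where it gave one it removed no call. With all groups in one fit, the C56BL6 counts became 1 at 24 h and 20 Gy and 1 at 12 d and 10 Gy, that of *A. cahirinus* 20 against 10 Gy became 6, and those against wild mice became 5 at 12 d and 0 for passaging. Without the expression filter the C56BL6 count at 12 d and 20 Gy was 1. Tests without the filter cover more genes. What caused any of these moves was not tested.

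Leaving out 1 number gave, without the block, 0 to 3 in C56BL6 mice at 12 d and 20 Gy, 0 to 2 at 10 Gy and 4 to 8 for passaging. In wild mice it gave 0 to 4 for passaging and 0 to 5 for 20 Gy against passaged cells. In *A. cahirinus* it gave 0 to 7 at 24 h for each dose and for 20 against 10 Gy at 12 d, and 1 to 6 for passaging. The interactions with C56BL6 mice gave 0 to 6 at 24 h, 0 to 9 at 12 d and 1 to 7 for passaging, and those with wild mice 0 to 4 at 12 d and 0 to 1 for passaging. CPM without TMM scaling moved 6 of 210 group means by more than 1 SD. Depth limits *E2f2*, and *E2f7*, *E2f8* and *Mybl2* in mice at 12 d, whose levels fall toward the floor of 3 counts.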
